A study of Homo sapiens with 4 samples.

Results

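Amino acid transporters of the plasma membrane were examined in nascent RNA of U2OS cells, a human osteosarcoma line, in hypertonic and isotonic medium. The set held 7 genes chosen by name (SLC38A2, SLC38A1, SLC1A5, SLC3A2, SLC7A5, SLC7A11 and SLC7A1), of 57428 genes with a sense-strand entry in the deposited tables, and every one of the 7 was found once and tested. The groups were hypertonic medium with 300 mM sodium, made with concentrated phosphate-buffered saline, and isotonic medium with 150 mM sodium, mock-supplemented with ordinary saline, with 2 libraries each. All cells stably overexpressed GFP-DCP1a, a fluorescent fusion of a decapping cofactor, under G418 selection, and whether the line was 1 clone is not given. RNA was labelled with 2 mM bromouridine (Bru-seq), which marks RNA made during the 30 min of labelling, and was taken after 0 h of chase. The length of the hypertonic exposure is not given, and nothing says whether replicates came from separate cultures, so the p-values rest on how far these libraries differ among themselves, a spread that may be purely technical.

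Cells take up amino acids through membrane carriers that couple transport to sodium or exchange one amino acid for another. SLC38A2 (also called SNAT2) and SLC38A1 (SNAT1) bring in small neutral amino acids together with sodium, and SLC1A5 (ASCT2) exchanges glutamine and other neutral amino acids in a sodium-dependent way. SLC7A5 (LAT1) and SLC7A11 (xCT) are light chains that need the heavy chain SLC3A2 to reach the membrane, while SLC7A1 (CAT1) carries arginine and lysine on its own. In cells that shrink in salt, neutral amino acids can serve as osmolytes, and SLC38A2 is known for induction by hypertonicity, and by amino acid shortage through the transcription factor ATF4.

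Promoter windows of 250 bases before and 50 after the transcript start, from RefSeq on GRCh38.p14, were matched for 6 of the 7 genes, all but SLC7A11, in 11 windows. They were searched on both strands for TGATGNAA, the form of the C/EBP-ATF composite element to which ATF4 binds, and for the consensus of the tonicity element TonE, to which the osmotic factor NFAT5 binds. The windows below are shown because they hold one of these matches, in capitals, and 1 of them belongs to SLC38A2, the gene with the highest level per length.
SLC38A2, chr12:46372724-46373023, minus strand: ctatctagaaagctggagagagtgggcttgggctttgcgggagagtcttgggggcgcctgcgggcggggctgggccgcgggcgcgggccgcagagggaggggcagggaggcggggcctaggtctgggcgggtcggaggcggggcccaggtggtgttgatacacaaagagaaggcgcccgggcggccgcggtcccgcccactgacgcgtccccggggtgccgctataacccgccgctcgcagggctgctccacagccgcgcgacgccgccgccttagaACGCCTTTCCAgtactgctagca
SLC7A1, chr13:29595639-29595938, minus strand: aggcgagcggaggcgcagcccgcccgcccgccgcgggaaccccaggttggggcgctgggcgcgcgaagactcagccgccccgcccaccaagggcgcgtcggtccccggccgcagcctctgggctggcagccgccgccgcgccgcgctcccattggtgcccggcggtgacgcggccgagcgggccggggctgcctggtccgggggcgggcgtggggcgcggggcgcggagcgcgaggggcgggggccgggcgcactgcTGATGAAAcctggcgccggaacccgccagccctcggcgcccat
SLC3A2, chr11:62881449-62881748, plus strand: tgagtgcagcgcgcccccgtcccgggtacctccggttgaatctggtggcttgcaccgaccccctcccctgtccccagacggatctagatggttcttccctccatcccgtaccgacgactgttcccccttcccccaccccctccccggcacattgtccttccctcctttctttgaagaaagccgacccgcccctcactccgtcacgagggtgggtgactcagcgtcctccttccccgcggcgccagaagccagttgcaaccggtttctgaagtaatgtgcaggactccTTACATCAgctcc
SLC38A1, chr12:46266467-46266766, minus strand: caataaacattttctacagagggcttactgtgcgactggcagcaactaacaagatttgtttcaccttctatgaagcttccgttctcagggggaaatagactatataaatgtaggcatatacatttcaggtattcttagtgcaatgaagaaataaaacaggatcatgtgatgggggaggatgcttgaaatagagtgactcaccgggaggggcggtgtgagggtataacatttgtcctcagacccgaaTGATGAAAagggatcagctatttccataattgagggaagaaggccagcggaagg

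The capitals mark a TonE match that begins at position 28 after the transcript start of SLC38A2 and reads on the opposite strand. They mark TGATGNAA at position 8 in SLC7A1, at position 38 on the opposite strand in SLC3A2 and from position -4 in SLC38A1, where position 1 is the first transcribed base. The match is in 1 of the 3 windows of SLC3A2 and in 1 of the 2 of SLC38A1. That SLC3A2 window, from 62881449, lies inside the gene entry, which begins at 62856102. The SLC38A1 window, up to 46266766, also lies inside its gene entry, which begins at 46269119 on the minus strand. TGATGNAA was found in 4 of the 11 windows, the remaining window being 1 of the 3 of SLC1A5, and in 3.62% of the 35116 windows in the table. That SLC1A5 window, up to 46785064, lies inside its gene entry as well, which begins at 46788594 on the minus strand. TonE was found in 1 of the 11 windows and in 4.92% of all windows. No window of these genes held both patterns, and a match of letters is a description, not a site in use. Bases outside the windows, introns included, were not searched, so a gene without a match here may hold one elsewhere.

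Sense counts of the 4 libraries summed to 25068625 and 20870648 in hypertonic replicates 1 and 2 and to 41932649 and 21865138 in isotonic replicates 1 and 2, and the 7 genes held 657 to 56424 counts each per library. Over 21238 tested genes, the correlation of log2 CPM (counts scaled to the TMM-adjusted library total) was 0.904 within the hypertonic pair and 0.980 within the isotonic pair. Hypertonic replicate 1 correlated with the isotonic libraries at 0.911 and 0.912, and hypertonic replicate 2 at 0.956 and 0.960. Hypertonic replicate 1 thus stood apart from the other 3 libraries, and the fold change of each member is given with each hypertonic library left out in turn. Of the markers of osteosarcoma lines, RUNX2, COL1A1 and SPARC were present in all 4 libraries, with COL1A1 at 1.67 to 5.82 RPKM (reads scaled to the length of the entry and to the library), while SP7, ALPL and COL1A2 were at or below 0.0189 RPKM. Of 9 markers of epithelium, blood, liver and endothelium, KRT18 had 1.29 to 3.71 RPKM, the other 8 were at or below 0.212 RPKM, and ALB and CD3E were listed at 0. The summed level of the 5 of these markers that were tested was 1.96 and 4.04 RPKM in the hypertonic and 1.49 and 1.62 RPKM in the isotonic libraries, and their part in the results was not tested.

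SLC38A2 (ENSG00000134294, chromosome 12, 46358189 to 46372867, minus strand) had the highest level per length of the set in each library and the widest gap between the hypertonic libraries. It measured 110.4 and 9.38 RPKM in hypertonic replicates 1 and 2, against 23 and 20.7 RPKM in isotonic replicates 1 and 2. One hypertonic library therefore lay above both isotonic libraries and the other below both, and the isotonic pair differed little. In hypertonic replicate 1 it ranked 1 by RPKM among the 14523 tested protein-coding genes, whereas it ranked 154 in hypertonic replicate 2 and 26 and 59 in isotonic replicates 1 and 2.

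**Figure D1:**
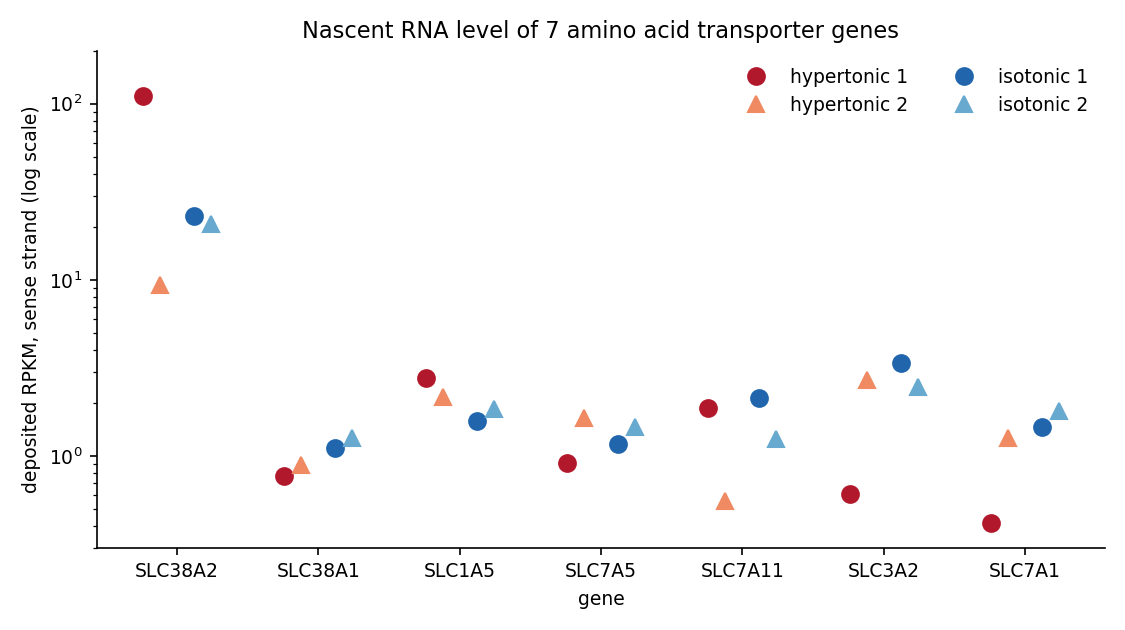
Deposited RPKM of the sense entry of each of the 7 transporter genes in each library (log scale; 1 point per library, circles for replicate 1 and triangles for replicate 2). SLC38A2 spans 9.38 to 110.4 RPKM, with the isotonic libraries in between, and the other 6 genes lie between 0.414 and 3.37 RPKM.

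On the scale of TMM-scaled CPM, SLC38A2 averaged 1265 ± 1582 CPM in hypertonic and 410.0 ± 3.58 CPM in isotonic libraries (SD, n = 2 each). The fitted log2 fold change, hypertonic over isotonic, was 1.62 ± 0.96 (SE), and it did not pass the test over all genes (edgeR quasi-likelihood, adjusted p = 0.626). Relative to the isotonic mean, hypertonic replicate 1 stood at 2.54 and replicate 2 at -1.49 on the log2 scale. Tools that average on the log scale gave 0.52 (limma-voom) and 0.56 (limma on log2 of RPKM plus 0.1), and the replicate block gave 0.53. Without hypertonic replicate 1 the fold change was -1.52 ± 0.23 (edgeR, adjusted p = 0.0792), and without hypertonic replicate 2 it was 2.54 ± 0.17 (edgeR, adjusted p = 0.000133). In these fits the lone hypertonic library was assumed to vary like the isotonic ones. With no filter on low counts SLC38A2 was called higher (log2 fold change 1.55, edgeR, adjusted p = 0.00746).

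The gap between the hypertonic libraries, 16.3-fold for SLC38A2 in CPM, was reached by 15 of the 9879 genes with a mean of at least 10 CPM, SLC38A2 included. The median absolute log2 difference over these genes was 0.77 between the hypertonic libraries and 0.25 between the isotonic ones. For SLC38A2 the isotonic libraries differed by 0.02 on that scale. Among 3129 protein-coding genes with a mean of at least 1 RPKM and no overlap on their strand, the 3 whose centred log2 CPM over the 4 libraries lay nearest to that of SLC38A2 were FAM46C, KLF5 and C3orf58. FAM46C measured 116 and 6.13 CPM in hypertonic and 13.8 and 11.4 CPM in isotonic libraries, at a distance of 0.61. KLF5, a zinc finger transcription factor, measured 459 and 51.3 against 91.5 and 112 CPM, at a distance of 0.66, and C3orf58 lay at 0.87. All 3 had hypertonic replicate 1 above and hypertonic replicate 2 below both isotonic libraries, which follows from their choice by nearness over these same libraries.

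SLC38A1 (ENSG00000111371, chromosome 12, 46183063 to 46269119, minus strand), the close relative of SLC38A2, lies 89.1 kb downstream of it on the same strand. It measured 0.769 and 0.891 RPKM in the hypertonic libraries, against 1.11 and 1.27 RPKM in the isotonic ones. Both hypertonic libraries were below both isotonic ones, and the hypertonic pair lay close together. In CPM it averaged 88.9 ± 11.2 in hypertonic and 131 ± 21.0 in isotonic libraries (SD, n = 2 each). Its log2 fold change of -0.56 ± 0.38 (SE) did not pass the test (edgeR, adjusted p = 0.711). With hypertonic replicate 1 left out the value was -0.73, and with replicate 2 left out it was -0.44. Of its length, 368 bases shared with another gene on the strand were excluded from its entry by the authors. Per length, SLC38A2 exceeded SLC38A1 by 144 and 10.5 times in the hypertonic and 20.7 and 16.3 times in the isotonic libraries, so the ratio of the pair lay on either side of the isotonic values.

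SLC1A5 (ENSG00000105281, chromosome 19, 46774883 to 46788594, minus strand), the glutamine exchanger, measured 2.77 and 2.15 RPKM in the hypertonic libraries, against 1.57 and 1.85 RPKM in the isotonic ones. In RPKM both hypertonic libraries were above both isotonic ones, a state that 23.5% of all tested genes showed. In TMM-scaled CPM the groups overlapped, with 56.0 and 31.3 CPM in hypertonic and 26.4 and 33.9 CPM in isotonic libraries. The log2 fold change was 0.53 ± 0.49 (SE, edgeR, adjusted p = 0.854), which became 0.02 with hypertonic replicate 1 left out and 0.89 with replicate 2 left out.

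The heavy chain SLC3A2 (ENSG00000168003, chromosome 11, 62856102 to 62888875, plus strand) measured 0.606 and 2.68 RPKM in the hypertonic libraries, against 3.37 and 2.47 RPKM in the isotonic ones. Hypertonic replicate 1 was well below the other 3 libraries, and replicate 2 lay between the isotonic values in RPKM. In CPM it measured 29.2 and 93.2 in hypertonic and 135 and 109 in isotonic libraries, which did not overlap. The log2 fold change was -0.99 ± 0.55 (SE, edgeR, adjusted p = 0.590). It was -2.06 ± 0.30 without hypertonic replicate 2 (edgeR, adjusted p = 0.00236) and -0.42 ± 0.27 without hypertonic replicate 1 (edgeR, adjusted p = 0.375).

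SLC7A5 (ENSG00000103257, chromosome 16, 87830023 to 87869488, minus strand), the light chain for large neutral amino acids, measured 0.907 and 1.65 RPKM in the hypertonic libraries, against 1.16 and 1.45 RPKM in the isotonic ones. The groups overlapped, and its log2 fold change of -0.12 ± 0.42 (SE) was smaller than its error (edgeR, adjusted p = 0.993). It was 0.03 without hypertonic replicate 1, -0.34 without hypertonic replicate 2, 0.13 when libraries were scaled by total count and 0.06 by upper quartile. Relative to the heavy chain, SLC7A5 stood at 1.5 and 0.617 in hypertonic and 0.344 and 0.588 in isotonic libraries (ratio of RPKM). Both hypertonic ratios were above both isotonic ones (exact permutation test, two-sided, p = 0.33, the smallest that 2 against 2 libraries can give). The highest was in hypertonic replicate 1, where SLC3A2 was low, while hypertonic replicate 2 (0.617) lay close to isotonic replicate 2 (0.588). No share over other gene pairs is given for this order. The same ratio for the light chain SLC7A11 overlapped, at 3.09 and 0.207 in hypertonic and 0.637 and 0.501 in isotonic libraries.

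SLC7A11 (ENSG00000151012, chromosome 4, 138164097 to 138242349, minus strand), the light chain of the cystine-glutamate exchanger, measured 1.88 and 0.554 RPKM in the hypertonic libraries, against 2.14 and 1.24 RPKM in the isotonic ones. As for SLC38A2, replicate 1 was the higher of the hypertonic pair, by 4.69-fold in CPM, and the isotonic pair also differed, by 0.66 on the log2 scale. The log2 fold change was -0.36 ± 0.64 (SE, edgeR, adjusted p = 0.967). It was -1.90 ± 0.35 without hypertonic replicate 1 (edgeR, adjusted p = 0.0881), 0.36 without hypertonic replicate 2 and 0.00 without isotonic replicate 1. Under upper-quartile scaling it was -0.13, with limma-voom -0.73, with the replicate block -0.71 and with limma on log2 RPKM -0.61.

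SLC7A1 (ENSG00000139514, chromosome 13, 29509410 to 29595688, minus strand), the arginine and lysine carrier, measured 0.414 and 1.26 RPKM in the hypertonic libraries, against 1.45 and 1.8 RPKM in the isotonic ones. Both hypertonic libraries were below both isotonic ones, replicate 1 the further. It averaged 83.7 ± 44.1 CPM in hypertonic and 181 ± 38.6 CPM in isotonic libraries (SD, n = 2 each). This gave a log2 fold change of -1.11 ± 0.47 (SE, edgeR, adjusted p = 0.433). Its unadjusted p of 0.0430 (edgeR) was the lowest of the set. The log2 fold change was -1.79 ± 0.30 without hypertonic replicate 2 (edgeR, adjusted p = 0.00408) and -0.69 ± 0.28 without hypertonic replicate 1 (edgeR, adjusted p = 0.200).

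**Figure D2:**
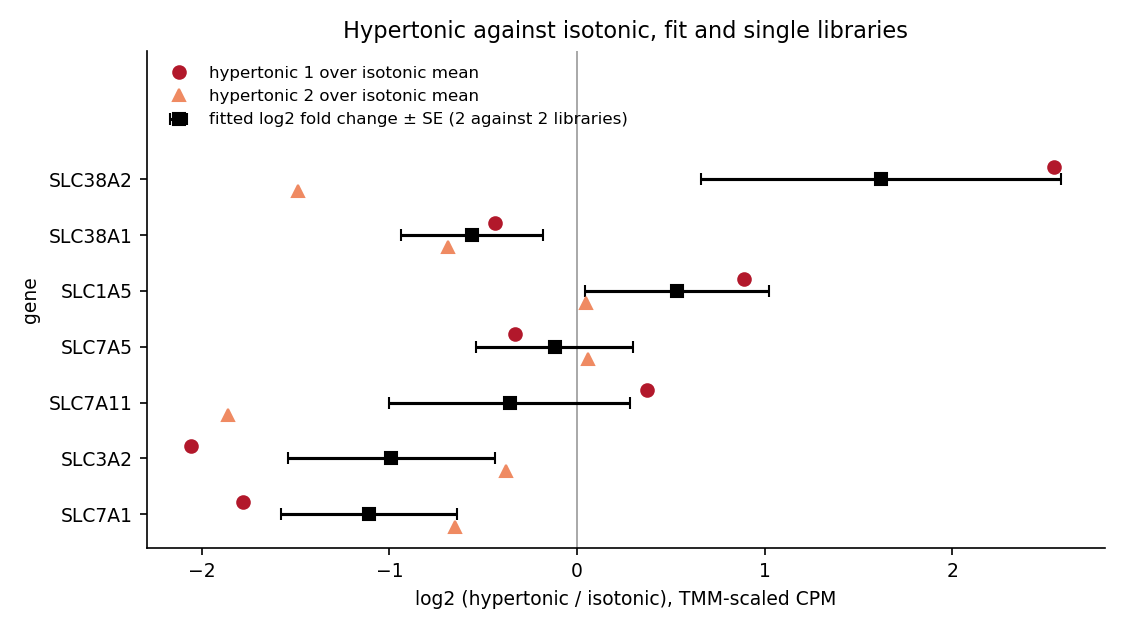
Log2 of hypertonic over isotonic for each transporter, on the scale of TMM-scaled CPM. Black squares with bars are the fitted fold change ± SE over 2 against 2 libraries, red circles and orange triangles are hypertonic replicates 1 and 2 over the isotonic mean; the replicates stand at 2.54 and -1.49 for SLC38A2 and at -2.06 and -0.38 for SLC3A2.

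Per length and by mean level, SLC38A2 was highest in the hypertonic libraries (59.9 ± 71.4 RPKM), followed by SLC1A5 (2.46 ± 0.440), SLC3A2 (1.64 ± 1.47), SLC7A5 (1.28 ± 0.527), SLC7A11 (1.21 ± 0.935), SLC7A1 (0.834 ± 0.595) and SLC38A1 (0.830 ± 0.0862 RPKM; SD, n = 2 each). The ranges of neighbours overlapped throughout this order from SLC1A5 downward. The isotonic order was SLC38A2 (21.8 ± 1.60 RPKM), SLC3A2 (2.92 ± 0.632), SLC1A5 (1.71 ± 0.192), SLC7A11 (1.69 ± 0.642), SLC7A1 (1.63 ± 0.244), SLC7A5 (1.31 ± 0.210) and SLC38A1 (1.19 ± 0.114 RPKM; SD, n = 2 each). There the ranges of SLC38A2, SLC3A2 and SLC1A5 were apart from one another, and neighbours from SLC1A5 downward overlapped or lay next to each other.

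Over the whole set, 0 of the 7 genes passed the edgeR test, as did 0% of the 21238 tested genes, and 0 of the 7 passed in DESeq2, where 3.44% of genes did. At an unadjusted p under 0.05 in edgeR, 1 member was lower and 0 were higher, against 2.01% lower and 8.89% higher of all tested genes. The median log2 fold change of the set was -0.36, with 5 of 7 negative. All tested genes had a median of 0.04. The 4828 protein-coding genes with a mean of at least 1 RPKM, a level that all 7 transporters reached, had a median of -0.33. For 3 of 7 members, SLC38A1, SLC3A2 and SLC7A1, the CPM of each hypertonic library was under that of each isotonic one, against 17.5% of all tested genes and 38.7% of those expressed protein-coding genes. The reverse order was seen in 0 of 7 members, against 22.5% of all tested genes and 5.32% of the expressed protein-coding ones. With no filter on low counts edgeR called 1 member, SLC38A2, and 2.45% of genes, and with the replicate number as a block it called 0 members and 1.81% of genes. A lower level in a bulk library cannot tell fewer transcribing cells from less RNA per cell.

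Taken alone, hypertonic replicate 1 placed every one of the 7 genes outside the isotonic range in CPM. SLC38A2, SLC7A11 and SLC1A5 were above it and SLC38A1, SLC7A5, SLC3A2 and SLC7A1 below it, where 42.2% of all tested genes were above and 42.3% below, and 22.3 and 65.6% of the expressed protein-coding ones. Hypertonic replicate 2 placed SLC38A2, SLC38A1, SLC7A11, SLC3A2 and SLC7A1 below and 0 genes above, with SLC1A5 and SLC7A5 inside the range, where 36.8% of all tested genes and 60.4% of the expressed protein-coding ones were below and 44.0 and 22.6% above. In RPKM, SLC1A5 and SLC7A5 of that library were above both isotonic libraries. In CPM the libraries thus placed SLC38A1, SLC3A2 and SLC7A1 on the same side and SLC38A2 and SLC7A11 on opposite sides. In RPKM this did not hold for 2 of these genes. SLC7A11 of hypertonic replicate 1 (1.88) and SLC3A2 of hypertonic replicate 2 (2.68) lay inside the isotonic range. Without hypertonic replicate 2, edgeR called 3 of 7 members (SLC38A2 higher, SLC3A2 and SLC7A1 lower) and 21.4% of all tested genes (11.1% higher, 10.3% lower), and without hypertonic replicate 1 it called 0 members and 0% of genes.

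Shares of each gene in the summed RPKM of the set do not depend on how libraries are scaled. SLC38A2 made up 93.8 and 50.5% of the summed RPKM in the hypertonic libraries, against 68.0 and 67.3% in the isotonic ones. Of the summed counts, not corrected for length, it made up 82.6 and 25.1% in hypertonic and 37.4 and 36.7% in isotonic libraries. On both scales hypertonic replicate 1 was above and replicate 2 below both isotonic libraries, and the difference of the group means was 4.49 percentage points in RPKM and 16.8 in counts. The summed level was 118 and 18.6 RPKM in hypertonic and 33.8 and 30.8 RPKM in isotonic libraries. Leaving SLC38A2 out, it was 7.35 and 9.18 RPKM in hypertonic and 10.8 and 10.1 RPKM in isotonic libraries. The sum of the 6 other genes was thus lower in both hypertonic libraries. Of these, only SLC38A1 and SLC7A1 were each below both isotonic libraries in RPKM, and SLC1A5 was above both. No share over all genes is given for such a sum, and 38.7% of single expressed protein-coding genes were below both in CPM. SLC7A11 was the only member whose share did not overlap between the groups, with 1.59 and 2.98% in hypertonic and 6.35 and 4.02% in isotonic libraries (exact permutation test, two-sided, p = 0.33, the smallest that 2 against 2 libraries can give). The level of SLC7A11 itself overlapped, at 216 and 46.0 CPM in hypertonic and 205 and 129.7 CPM in isotonic libraries. These shares are defined within the set, so no value over all genes stands beside them. SLC3A2 made up 0.515 and 14.4% in hypertonic and 9.96 and 8.02% in isotonic libraries, with the hypertonic values on either side.

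**Figure D3:**
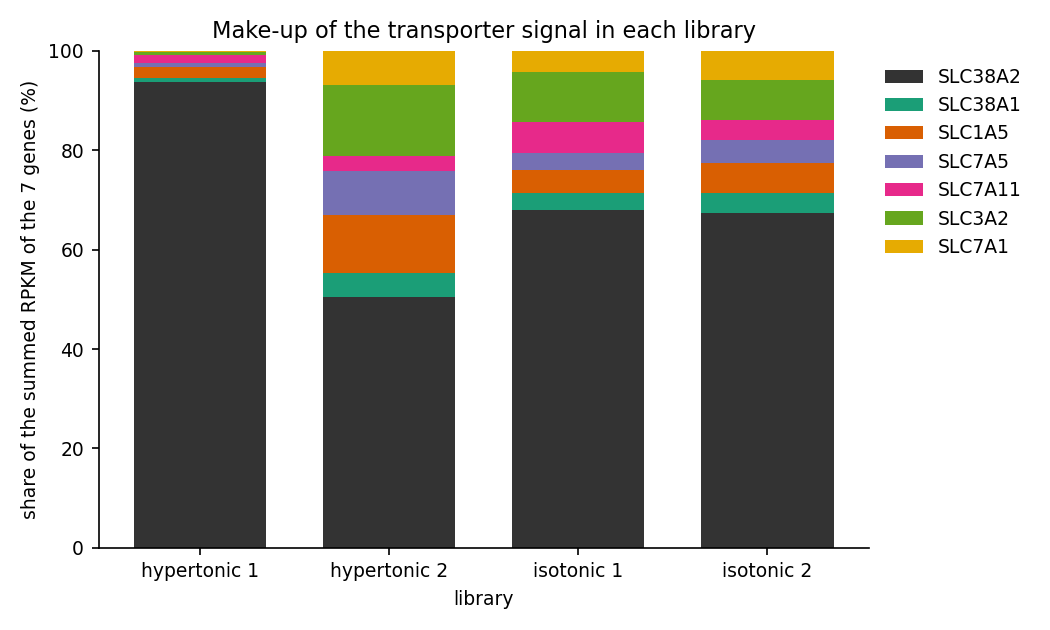
Share of each transporter in the summed RPKM of the 7 genes, in percent, with 1 stacked bar per library. SLC38A2 takes 93.8 and 50.5% of hypertonic replicates 1 and 2, against 68.0 and 67.3% of isotonic replicates 1 and 2.

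Among the 7 genes, patterns over the 4 libraries were nearest for SLC38A1 and SLC7A5, at a distance of 0.64 in centred log2 CPM, and for SLC7A1 and SLC3A2, at 0.66. SLC7A1 and SLC3A2 shared a low hypertonic replicate 1. The farthest pair was SLC38A2 and SLC3A2, at 4.39. SLC38A2 and SLC38A1, neighbours and close relatives, were 2.89 apart. The nearest member to SLC38A2 was SLC7A11, at 1.83.

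Entries on the strand of a transporter that begin within 50 kb after its end were examined after the values had been seen, as were the comparisons of their levels with the transporter. The strand opposite to the annotated gene SLC7A11-AS1 begins at the base after the end of SLC7A11 (chromosome 4, 138130710 to 138164096) and measured 1.5 and 0.305 RPKM in the hypertonic libraries, against 0.667 and 0.303 RPKM in the isotonic ones. The groups overlapped in RPKM, and within each group the library with more SLC7A11 also had more of this signal. As a percentage of the RPKM of SLC7A11 they were 80.1 and 55.0% in hypertonic and 31.1 and 24.5% in isotonic libraries, so both hypertonic libraries were above both isotonic ones (exact permutation test, two-sided, p = 0.33). LINC00616, the next gene on that strand, 33.4 kb downstream, had 309 and 57 counts in hypertonic and 56 and 7 counts in isotonic libraries. Its log2 fold change was 3.09 ± 1.03 (SE, adjusted p = 0.319 in edgeR and 0.0212 in DESeq2).

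The nearest downstream genes on the strand of 3 other members were also higher in both hypertonic libraries than in both isotonic ones, an order that 22.5% of all tested genes showed in CPM and 23.5% in RPKM. MTUS2-AS1, 19.3 kb after SLC7A1, had 312 and 14 counts in hypertonic and 8 and 3 counts in isotonic libraries. Its log2 fold change was 5.23 ± 1.41 (SE, adjusted p = 0.228 in edgeR and 0.000307 in DESeq2). In RPKM it stood at 159 and 3.04% of SLC7A1 in hypertonic and at 0.812 and 0.473% in isotonic libraries. Nearer to SLC7A1, 3.46 kb after its end, the strand opposite to the long gene MTUS2 stood at 22 and 10.3% in hypertonic and at 4.97 and 6.47% in isotonic libraries. The RPKM of that long entry itself overlapped between the groups, with 0.0912 and 0.129 in hypertonic and 0.0722 and 0.116 in isotonic libraries, while SLC7A1 was lower in both hypertonic libraries. AP000438.1, 20.7 kb after SLC3A2, had 126 and 3 counts in hypertonic and 2 and 1 counts in isotonic libraries. It did not pass the filter on low counts and was not tested. AC126696.1, 23.5 kb after SLC7A5, had 150 and 60 counts in hypertonic and 39 and 10 counts in isotonic libraries. Its log2 fold change was 2.53 ± 0.83 (SE, adjusted p = 0.310 in edgeR and 0.0511 in DESeq2). In each of these genes hypertonic replicate 1 was highest, and in MTUS2-AS1 and AP000438.1 hypertonic replicate 2 held at most 14 counts. STRN4, 27.9 kb after SLC1A5, a striatin family gene, had 0.203 and 1.77 RPKM in hypertonic and 1.17 and 1.34 RPKM in isotonic libraries, which overlapped. After SLC38A2 and SLC38A1 no entry began within 50 kb. Upstream neighbours were at 0 to 0.820 RPKM, apart from SLC38A2 upstream of SLC38A1 and UBL3 upstream of SLC7A1, at 0.861 and 0.582 RPKM in hypertonic and 0.739 and 0.829 RPKM in isotonic libraries. An upstream neighbour, AC008622.1, 38.3 kb before SLC1A5, was also higher in both hypertonic libraries. It had 44 and 7 counts in hypertonic and 6 and 1 counts in isotonic libraries and was not tested. The other upstream neighbours did not show this order.

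**Figure D4:**
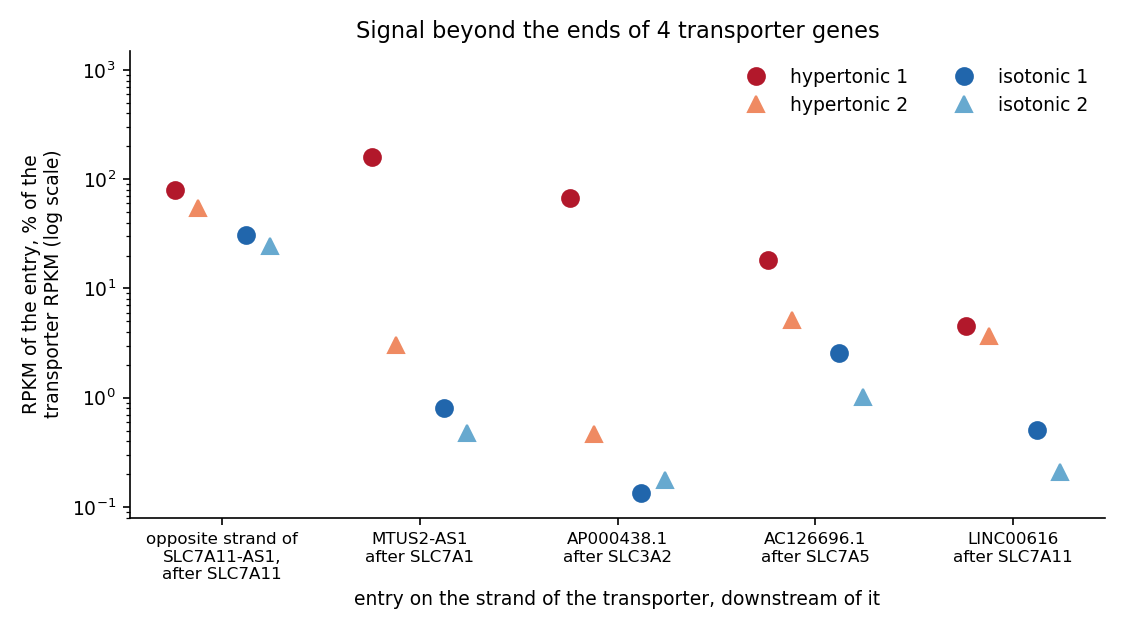
RPKM of entries downstream of SLC7A11, SLC7A1, SLC3A2 and SLC7A5 on the same strand, in percent of the RPKM of that transporter (log scale; 1 point per library). For each of the 5 entries, chosen after the values had been seen, both hypertonic points lie above both isotonic points. Directly after SLC7A11 they stand at 80.1 and 55.0% in hypertonic and at 31.1 and 24.5% in isotonic libraries. Not shown are the strands opposite to MTUS2 and CHRM1, with the same order, and STRN4 after SLC1A5, which overlapped. STRN4 stood at 7.31 and 82.3% in hypertonic and at 74.2 and 72.4% in isotonic libraries. No share over all genes is given for this ratio.

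Antisense entries of the 7 genes were sparse. They held 0 to 40 counts per library, at most 3.61% of the sense count, and the highest were those of SLC3A2, with 25 and 39 counts in hypertonic and 40 and 21 counts in isotonic libraries. SLC38A2, with its large sense signal, had 1 and 1 antisense counts in hypertonic and 4 and 2 in isotonic libraries. The antisense entry of SLC38A1 had 16 and 11 counts in hypertonic and 6 and 2 counts in isotonic libraries.

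The other amino acid carriers were mostly transcribed at lower levels than the 7 members. Of 33 listed, 28 were tested, with 20 positive and 8 negative fold changes and a median log2 fold change of 0.32, beside 0.04 over all tested genes. The 28 summed to 9.23 and 11.1 RPKM in hypertonic and 9.72 and 9.53 RPKM in isotonic libraries. In edgeR 0 passed, and DESeq2 called 1, SLC7A9. SLC7A9, a light chain of a cystine and basic amino acid exchanger of kidney and gut, measured 11.5 and 2.48 CPM in hypertonic and 1.23 and 1.24 CPM in isotonic libraries. Its log2 fold change was 2.5 ± 0.87 (SE, adjusted p = 0.336 in edgeR and 0.0491 in DESeq2), and it overlaps another gene on its strand. SLC43A1, a carrier of branched-chain amino acids, measured 16.2 and 8.92 against 5.84 and 6.97 CPM, a log2 fold change of 0.97 ± 0.61 (edgeR, adjusted p = 0.666). SLC7A2, a cationic amino acid carrier related to SLC7A1, measured 49.0 and 64.9 against 76.8 and 103 CPM, a log2 fold change of -0.66 ± 0.41 (edgeR, adjusted p = 0.663). SLC7A2 overlaps another gene on its strand. Both hypertonic libraries were above both isotonic ones for 8 of the 28 and below them for 3, beside 22.5 and 17.5% of all tested genes.

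**Figure D5:**
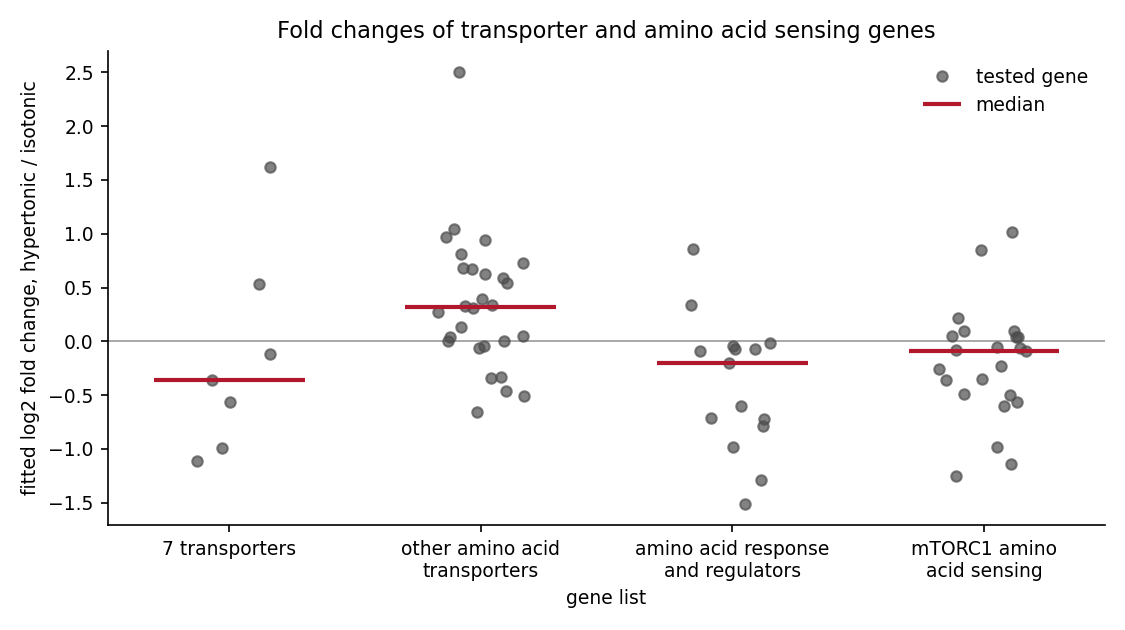
Fitted log2 fold change (hypertonic over isotonic) of each tested gene of 4 lists, with the median as a red line. Medians were -0.36 for the 7 transporters, 0.32 for 28 other amino acid transporters, -0.20 for 15 genes of the amino acid response and -0.09 for 23 genes of amino acid sensing by mTORC1.

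Regulators of these transporters were examined beside them. ATF4 measured 66 and 45.5 CPM in hypertonic and 54.7 and 62.5 CPM in isotonic libraries, and NFAT5 measured 393 and 268 against 325 and 357 CPM. For both, hypertonic replicate 1 was above and replicate 2 below both isotonic libraries in CPM. In RPKM, ATF4 measured 15.0 and 14.3 in hypertonic and 15.0 and 15.6 in isotonic libraries. NFAT5 measured 1.95 and 1.85 against 1.94 and 1.95 RPKM. On that scale replicate 2 was again below both for each gene, but replicate 1 was not above both at these digits. Their log2 fold changes of -0.07 ± 0.42 and -0.04 ± 0.40 were smaller than their errors (SE, edgeR, adjusted p = 0.996 each). Of 16 genes listed for the amino acid response and the control of these carriers, 15 were tested, 2 positive and 13 negative, with a median of -0.20, and 0 passed in edgeR or DESeq2. CEBPG, a C/EBP factor that pairs with ATF4, measured 7.48 and 27.2 against 49.7 and 49.2 CPM, a log2 fold change of -1.51 ± 0.63 (edgeR, adjusted p = 0.426). BACH1, a repressor at antioxidant elements, measured 234 and 193 against 354 and 492 CPM, at -0.98 ± 0.41 (edgeR, adjusted p = 0.420). NFE2L2, the antioxidant factor that activates SLC7A11, measured 96.6 and 98.7 against 149 and 188 CPM, at -0.79 ± 0.38 (edgeR, adjusted p = 0.511). In these 3, named for the smallest p of the list, both hypertonic libraries were below both isotonic ones. Of the 15 tested genes 4 showed that order and 2 the reverse, beside 17.5 and 22.5% of all tested genes. Among the expressed protein-coding genes these shares were 38.7 and 5.32%. BACH1 and NFE2L2 overlap other genes on their strands.

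The mTORC1 kinase complex senses the amino acids that such carriers bring in. Of 24 genes listed for this sensing, 23 were tested, with 8 positive and 15 negative fold changes, a median of -0.09, and 0 passing in edgeR or DESeq2. In 7 of the 23 both hypertonic libraries were below both isotonic ones, and in 0 above, beside 17.5 and 22.5% of all tested genes and 38.7 and 5.32% of the expressed protein-coding ones. RHEB, the small GTPase that switches mTORC1 on, measured 55.8 and 49.2 CPM in hypertonic and 98.5 and 132 CPM in isotonic libraries, which gives -1.14 ± 0.40 on the log2 scale (SE, edgeR, adjusted p = 0.338). LAMTOR5, a subunit of the lysosomal scaffold, stood at -0.98 ± 0.55 (edgeR, adjusted p = 0.603), and RRAGA, a Rag GTPase, at -1.25 ± 0.71 (edgeR, adjusted p = 0.608).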

How the data were processed

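Nascent RNA was measured by Bru-seq in 2 hypertonic and 2 isotonic libraries, grouped by their labels. Per the submitters' processing notes, the tools were STAR 2.5.3a, Bowtie2 2.3.3, bedtools 2.16.2 and CASAVA 1.8.2, on GRCh38 (hg38), with roles and annotation release not given in the sources used here. The authors deposited tables without header that hold an estimated count per gene and strand, made before deposit from the mapped reads, a unit read from the values. The deposited RPKM was computed by the authors as the estimated count relative to the length of the entry and 1 constant per library. Bases shared by genes on a strand are pooled in 48 entries (3.11 to 3.48% of counts), left out here with genes lacking a strand (0.165 to 0.209%). Total counts were 28367788 and 23048409 (hypertonic) and 44888307 and 23410787 (isotonic). No molecular identifiers are named, so counts are of reads.

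Gene strand and type came from GENCODE release 29. Counts were rounded and the sense entries fitted over all genes with edgeR 4.0.16 in R 4.3.3 (TMM, default expression filter, quasi-likelihood test, Benjamini-Hochberg adjustment at 0.05); the SE is the log2 fold change over the square root of F. Alternatives used limma 3.58.1, DESeq2 1.42.0, other scalings, no filter, the replicate number as a block, and each library left out. The fit was run on simulated data with known changes, with a pass rule set only at a low dispersion. That check therefore does not give the power of the fit at the spread of these libraries. Python 3.11.15, pandas 2.3.3 and matplotlib 3.10.9 were used.

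The members and lists were chosen with earlier results of these data known. Named genes were the 7 members, ATF4, NFAT5, the 3 genes with the smallest p of each list, same-strand neighbours and the 3 genes nearest to SLC38A2 in pattern. One marker and one neighbouring entry are not reported here.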

Additional observations from a re-analysis of the deposited data

Results flagged for a closer look

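The antisense entry of SLC38A1, which was outside the main comparison, held 27 counts over the 2 hypertonic libraries and 8 over the 2 isotonic ones, and its RPKM was higher in both hypertonic libraries (0.00536 and 0.00475) than in the isotonic ones (0.00140 and 0.000900). The strand opposite to CHRM1, which begins 19.8 kb after SLC3A2 on its strand, held 35 counts over the hypertonic libraries, 34 of them in replicate 1, and 0 and 0 in the isotonic libraries. Both were picked out because a signal in data outside the sense-strand comparison was above its level in both isotonic libraries. For the CHRM1 entry hypertonic replicate 2 held 1 count. The antisense entry of SLC38A2 showed the reverse order, at 0.00216 and 0.00279 RPKM in hypertonic and 0.00604 and 0.00580 RPKM in isotonic libraries. Antisense entries of the remaining members overlapped between the groups. All these counts were low, and no share over all antisense entries is given for either order.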

How the results depend on the processing

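Of the 7 fold changes, those of SLC38A1 and SLC1A5 kept their sign and side of the threshold under all 12 alternatives. SLC38A2 was called with no filter on low counts (1.55), and its range over the fits that leave out 1 library was -1.52 to 2.54. These ranges were -1.79 to -0.69 for SLC7A1, -2.06 to -0.42 for SLC3A2, -1.90 to 0.36 for SLC7A11, with 0.00 without isotonic replicate 1, and -0.37 to 0.09 for SLC7A5, with 0.03 without hypertonic replicate 1. SLC7A5 was 0.13 with libraries scaled by total count and 0.06 by upper quartile. These scalings moved the median of all genes from 0.04 to 0.26 and 0.23. Genes called over all genes numbered 0 in edgeR (2316 at an unadjusted p under 0.05), 916 with no filter, 731 in DESeq2, 0 in limma-voom, 384 with the replicate block and 0 to 4918 with 1 library left out, with 4918 when hypertonic replicate 2 was out, 6 when isotonic replicate 1 was out and 4 when isotonic replicate 2 was out. Members called numbered 1 with no filter and 0 to 3 with 1 library left out. The median of the members was -0.69 to -0.34 with 1 library left out. The median of the other amino acid transporters was 0.55 by total count, 0.51 by upper quartile, 0.23 with limma-voom, 0.24 with the replicate block and 0.14 to 0.29 with 1 library left out. The share of SLC7A11 differed by -7.44 percentage points in counts and by -2.89 in RPKM. The cause was not tested, beyond the smaller number of libraries or the larger number of tested genes that a setting has by construction. Same-numbered libraries showed a correlation of 0.0247 in their deviations over 21238 genes, so the numbers were not taken to pair the samples, and the replicate block called 0 members. Each comparison rests on 2 libraries a group, and no fit at matched depth was run.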
